A study of Xenopus laevis with 96 samples.

Results

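Embryos of the African clawed frog Xenopus laevis that had been treated with retinoic acid (RA) were compared with embryos of the same clutches in which RA production had been inhibited, 3 h after both agents were washed out. The comparison rests on 12 of the 96 libraries of the series, 6 with RA and 6 with DEAB, chosen by the treatment and time in their labels and paired by the letter of the clutch (A to F). RA-treated embryos had received 10 nM all-trans RA for 2 h, and DEAB-treated embryos 50 μM 4-diethylaminobenzaldehyde (DEAB), an inhibitor of the retinaldehyde dehydrogenases, for the same 2 h. Untreated control embryos, named as no-exposure in the labels, gave 6 further libraries at 3 h, and embryos in 0.5% ethanol gave another 6. All embryos were wild type and whole, each clutch was the eggs of a single female, and a library pooled 5 to 10 staged embryos, whose sex was not determined. Treatment began at late blastula and ended at early gastrula, and the libraries at 3 h carry the label stage 12 in clutches A, D, E and F and stage 11.5 in clutches B and C. The study gives DMSO as the solvent of both stocks, and the labels give no DMSO control, so that a solvent effect against the untreated control cannot be told apart from a treatment effect. In the RA against DEAB comparison both sides had been treated.

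RA is made from vitamin A in sequential oxidations, from retinol to retinaldehyde by dehydrogenases such as RDH10, and from retinaldehyde to RA by the ALDH1A enzymes. It is removed by the CYP26 cytochrome P450 enzymes, and its supply is limited by reductases such as DHRS3 that turn retinaldehyde back into retinol. RA binds nuclear receptors that pair with RXR on DNA and directly raise transcription of targets such as the 3′ hox genes. In gastrula and neurula embryos this signal is known for patterning the hindbrain and the anterior spinal cord, and for raising the very enzymes that remove it.

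The total count per library was 9049458 to 12024969 with RA (median 11039891), 7422919 to 13715351 with DEAB and 8690948 to 13018571 in control. None of the 45 pairs of libraries within a group repeated each other (chi-square over its degrees of freedom of 18.3 or more). Libraries of the same clutch deviated together from their group means, with 18 correlations between 0.709 and 0.833, and each of the 18 was the highest for its clutch. A gene without a symbol, Xelaev18046754m, had a log2 CPM of 1.52 or more in 10 of the 12 RA, DEAB and control libraries of clutch B over all times, and of at most -0.41 in the other clutches. It was at -1.90 in clutch B with DEAB at 3 h, against 3.43 with RA and 2.07 in control, and at -1.55 in clutch B with RA at 1.5 h. Over all genes the DEAB library of clutch B at 3 h did follow its clutch (correlation 0.799 with RA and 0.780 with control of clutch B, and at most 0.024 with control of another clutch), whereas its treatment label could not be checked with this gene. Without clutch B, 204 genes were called for RA against DEAB. Markers of neural, epidermal, mesodermal, endodermal and organizer tissue were present throughout. Of 23 such rows tested none was at 0 in any RA or DEAB library, none passed the test, and their log2 fold changes ran from -0.25 for gsc.L to 0.30 for tp63.S. In pooled whole embryos, fewer cells expressing a gene and less RNA per cell cannot be told apart.

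At 3 h the RA and DEAB embryos differed in a small and mostly one-directional set of genes. Of 19400 genes tested, 172 were higher with RA and 16 lower at an adjusted p under 0.05 (edgeR's quasi-likelihood test with the clutch as a block), which is 0.887% and 0.0825% of the genes tested, or 0.969% in both directions. The 172 higher genes had a median log2 fold change of 0.64, with 42 of them at least 2-fold, whereas the 16 lower genes had a median of -0.39 and none reached 2-fold. The median over all genes tested was -0.01. Among the higher genes 151 of 172 had more RNA with RA in each of the 6 clutches, against 2.53% of all genes tested, and 15 of the 16 lower genes had less in each clutch, against 1.9%. All RA libraries lay above all DEAB libraries for 16 of the 172, against 0.0876% of all genes, and the opposite separation was seen for 0% of genes. The genes were called in these same libraries with the clutch as a block. That choice favours agreement between clutches and separated libraries, so these shares are a description and no further support for the calls. Without the clutch block 2 genes were called. Single clutches weighed on the count, with 84 genes called without clutch D, 104 without E and 92 without F. A core of 71 genes, 70 higher and 1 lower, was called in each of the 6 fits that left out 1 clutch.

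**Figure D1:**
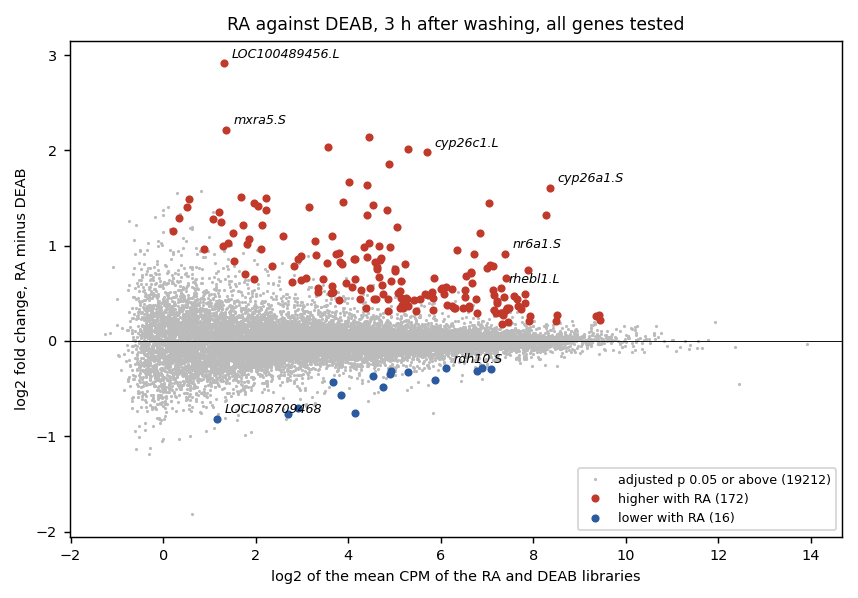
Log2 fold change (RA minus DEAB) of the 19400 genes tested against the log2 of their mean CPM in the 12 libraries, with called genes coloured (172 higher and 16 lower with RA). The higher genes reach a log2 fold change of 2.91, whereas no lower gene passes -1.

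Of 13 tested genes of RA breakdown, retinaldehyde reduction and RA binding, 5 rose with RA and none fell, beside 0.969% of all genes tested. These 5 were both copies of cyp26a1, both copies of cyp26c1 and dhrs3.L. X. laevis carries near-identical L and S copies of many genes, and the counting could have split reads between them, so that the value of a single copy is uncertain to that extent. cyp26a1.S, the S copy of an RA-degrading P450, ran from 186 to 1186 CPM with RA (median 458), against 121 to 185 CPM with DEAB (median 143). The groups did not overlap, and within RA the values were spread widely: clutch C was at 1186 CPM and clutch B at 186 CPM, whereas the DEAB libraries stayed close to each other. Its log2 fold change was 1.61 ± 0.24 (SE derived from the edgeR test, adjusted p = 0.00139 by edgeR). The differences within clutches ran from 0.385 to 2.68. cyp26a1.L ran from 200.2 to 857 CPM with RA (median 415), against 122 to 192 CPM with DEAB (median 176), also without overlap, with a log2 fold change of 1.32 ± 0.20 (adjusted p = 0.00152). The clutches had been admitted to sequencing by the qPCR response of a few genes, cyp26a1.L and hoxb4.S among them, to both agents. The values of these genes are therefore not independent evidence of a response. All 6 clutches were thus chosen as responders, which may also enlarge the differences of other RA-responsive genes and the number of calls. How far it does was not tested.

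cyp26c1, the neighbouring P450 with the same substrate, differed most among the enzymes. cyp26c1.S ran from 22.0 to 147 CPM with RA (median 58.0), against 3.56 to 29.0 CPM with DEAB (median 12.8), and cyp26c1.L from 32.0 to 216 CPM with RA (median 69.4), against 5.41 to 35.4 CPM with DEAB (median 19.8). The ranges overlapped between clutches: clutch E was lowest with DEAB for both copies (3.56 CPM for the S copy) and clutch D highest with RA (147 CPM). Within clutches the difference was positive 6 times of 6, at 1.02 to 3.02 on the log2 scale for the S copy and 0.74 to 2.74 for the L copy. The log2 fold changes were 2.02 ± 0.27 (adjusted p = 0.000520) and 1.98 ± 0.26 (adjusted p = 0.000474). dhrs3.L, the reductase that returns retinaldehyde to retinol, averaged 195 ± 105 CPM with RA and 66.6 ± 14.3 CPM with DEAB (SD, n = 6 each), with a log2 fold change of 1.45 ± 0.19 (adjusted p = 0.000520). The other 8 genes of this list did not pass the test, among them both copies of crabp2, which binds RA in the cytoplasm, at 0.06 and -0.16. The median of the whole list was 0.09.

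Genes that make RA showed little. Of 9 tested, 1 passed, beside 0.969% of all genes tested. This was rdh10.S, which oxidises retinol to retinaldehyde and fell with RA (log2 fold change -0.28 ± 0.07, adjusted p = 0.0375). It ran from 52.1 to 88.1 CPM with RA (median 59.0), against 65.2 to 89.1 CPM with DEAB (median 75.8), so that the groups overlapped, yet RA was below DEAB in 6 of 6 clutches, by the least in clutch C (88.1 CPM with RA and 89.1 CPM with DEAB). It was called in 1 of the 6 fits that left out a clutch. The L copy, rdh10.L, averaged 163 ± 52.2 CPM with RA and 173 ± 45.8 CPM with DEAB (SD, n = 6 each) and did not pass (log2 fold change -0.11 ± 0.06, adjusted p = 0.761). aldh1a2.L, the main retinaldehyde dehydrogenase of the early embryo and a target of DEAB, averaged 157 ± 44.6 CPM with RA and 176 ± 40.3 CPM with DEAB, lower in 6 of 6 clutches and not called (log2 fold change -0.17 ± 0.08, adjusted p = 0.681). aldh1a3.L, a related enzyme at low level, ran from 1.195 to 2.37 CPM with RA (median 1.83), against 1.43 to 5.64 CPM with DEAB (median 2.61) (log2 fold change -0.80 ± 0.24, adjusted p = 0.173). The median of this list was -0.10.

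Of 19 tested receptors and coregulators, 2 were called, beside 0.969% of all genes tested. Both were copies of nr6a1, an orphan nuclear receptor also called germ cell nuclear factor. nr6a1.S ran from 184 to 286 CPM with RA (median 206), against 74.8 to 171 CPM with DEAB (median 119), with no overlap (log2 fold change 0.92 ± 0.13, adjusted p = 0.000894). nr6a1.L ran from 106 to 235 CPM with RA (median 152), against 67.3 to 145 CPM with DEAB (median 85.8) (log2 fold change 0.77 ± 0.11, adjusted p = 0.00112), overlapping between clutches but higher with RA in each. The RXR genes tested, which encode the shared partner of the RA receptors, lay between -0.16 for rxrg.L and 0.12 for rxra.S, and none passed. No gene of the RA receptors (RAR) themselves was among the 19 tested, so the RA receptors were not examined.

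The hox genes, which give cells their position along the head-to-tail axis, had positive log2 fold changes throughout. In paralogue groups 1 to 4, 6 of 10 tested genes were called, beside 0.969% of all genes tested, with a median log2 fold change of 1.07. These were 5 of 5 tested genes in group 1 (median 1.41) and the 1 tested gene of group 2 (1.37). In groups 3 and 4, 0 of 4 were called, with a median of 0.80. In groups 5 to 13, 0 of 10 were called, with a median of 0.74. All 10 were of groups 5 to 9, so the groups after 9 were not examined. None of the 20 had a negative log2 fold change. Single clutches agreed less: 7 of the 10 in groups 1 to 4 and 3 of the 10 later genes were higher in all 6 clutches. hoxc5.L and hoxc8.S were higher with RA in 3 clutches only. Some were near 1 CPM, such as hoxb9 at 1.07 CPM with RA and 0.529 CPM with DEAB (means). Over all genes, in the fit of the 72 libraries of all times, 49.1% lay above 0 at 3 h. The called and uncalled genes were not tested against each other. Among the uncalled, hoxa9.S of group 9 averaged 2.13 ± 1.17 CPM with RA and 0.940 ± 0.559 CPM with DEAB (SD, n = 6 each) and did not pass (adjusted p = 0.0873), and hoxb4.S averaged 7.52 ± 3.64 CPM with RA and 4.42 ± 2.73 CPM with DEAB (log2 fold change 0.82, adjusted p = 0.116).

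The 2 copies of hoxd1, the most abundant hox genes here, were both called. hoxd1.L ran from 85.9 to 159 CPM with RA (median 129), against 68.1 to 99.3 CPM with DEAB (median 78.7), a log2 fold change of 0.61 ± 0.09 (adjusted p = 0.00100). hoxd1.S ran from 78.1 to 147 CPM with RA (median 124), against 60.97 to 86.1 CPM with DEAB (median 69.2), at 0.68 ± 0.10 (adjusted p = 0.00112). Both overlapped between clutches and both were higher with RA in each clutch. hoxb1.S, of the group that marks the hindbrain, ran from 4.17 to 27.2 CPM with RA (median 10.3), against 1.04 to 11.6 CPM with DEAB (median 4.31) (1.41 ± 0.24, adjusted p = 0.00385). hoxa2.S ran from 2.37 to 10.8 CPM with RA (median 6.48), against 2.19 to 2.82 CPM with DEAB (median 2.51) (1.37 ± 0.22, adjusted p = 0.00186), with clutch B at 2.37 CPM inside the DEAB range.

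**Figure D2:**
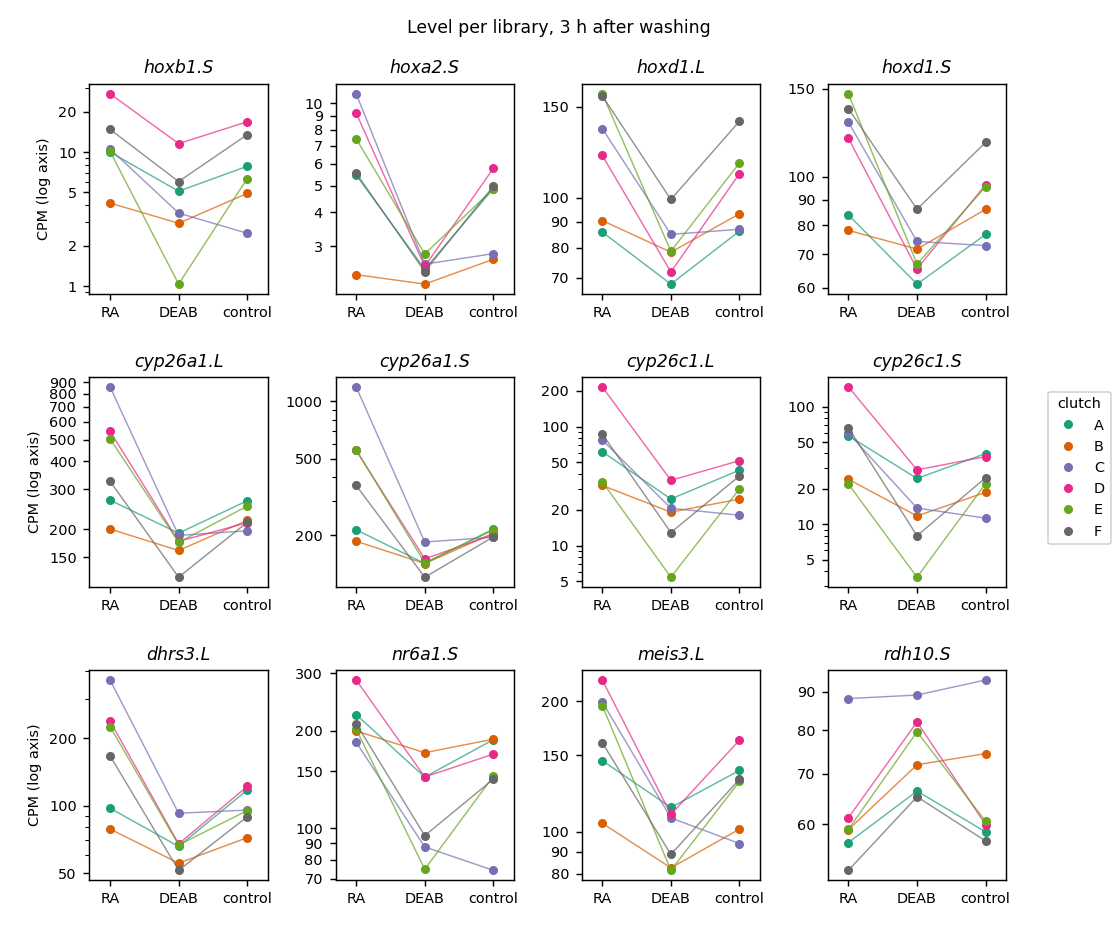
CPM per library (log axis) of 4 hox genes, 5 genes of RA removal, nr6a1.S, meis3.L and rdh10.S in RA, DEAB and control embryos, with lines joining the 3 libraries of a clutch. RA exceeds DEAB in each clutch for the first 11 genes and lies below it for rdh10.S.

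Among 14 hox cofactors and caudal genes, 2 were called, both higher with RA, beside 0.969% of all genes tested. meis3.L, whose protein binds DNA together with hox proteins and is required in the Xenopus hindbrain, ran from 105 to 224 CPM with RA (median 178), against 81.4 to 114 CPM with DEAB (median 98.1) (log2 fold change 0.80 ± 0.11, adjusted p = 0.000918). cdx4.S, a caudal gene of the posterior body, averaged 166 ± 31.1 CPM with RA and 118 ± 17.2 CPM with DEAB (SD, n = 6 each, log2 fold change 0.48 ± 0.09, adjusted p = 0.00802). Their copies lay just outside the threshold, meis3.S at 0.21 (adjusted p = 0.0539) and cdx4.L at 0.30 (adjusted p = 0.0567), each higher in 6 of 6 clutches.

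Of 19 tested hindbrain and spinal cord transcription factors, 7 rose with RA and none fell, beside 0.969% of all genes tested. Among the 7 were both copies of znf703, gbx2.1.L, gbx2.2.L and pax6.S. The median of the list was 0.13. znf703.L, a zinc finger gene expressed in the vertebrate hindbrain, ran from 91.7 to 158 CPM with RA (median 127), against 67.4 to 87.1 CPM with DEAB (median 75.6) and did not overlap (0.71 ± 0.11, adjusted p = 0.00125). znf703.S ran from 112 to 231 CPM with RA (median 184), against 89.4 to 116 CPM with DEAB (median 99.3) (0.79 ± 0.12, adjusted p = 0.00171).

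The lists of other regions and tissues held 0 to 3 called genes each, which is 0% to 11.5% of a list, beside 0.969% of all genes tested. Of 18 forebrain, midbrain and eye field genes 1 rose, the T-box gene tbx3.S (0.44 ± 0.10, adjusted p = 0.0242), while the list's median was -0.12. In the fit of all times tbx3.S had 0.03, -0.24, 0.45 and -0.08 at 0, 1.5, 3 and 4.5 h, without a called change between 3 h and another time. Of 24 genes of primary neurogenesis 2 rose: prph.L, which encodes the neuronal intermediate filament peripherin, and jag1.L, a Notch ligand. prph.L ran from 14.7 to 35.0 CPM with RA (median 24.8), against 3.11 to 16.9 CPM with DEAB (median 6.72) (1.67 ± 0.24, adjusted p = 0.00112), with the DEAB library of clutch A at 16.9 CPM as the exception to an otherwise clear gap. jag1.L ran from 68.1 to 122 CPM with RA (median 100.1), against 54.0 to 96.1 CPM with DEAB (median 79.3) (log2 fold change 0.35 ± 0.07, adjusted p = 0.0153). Its S copy, jag1.S, did not rise (-0.14, adjusted p = 0.841). Of 26 lateral, cardiac and pronephric genes 3 rose, among them lhx1.L, a LIM homeodomain gene of the organizer and the pronephros (0.51 ± 0.11, adjusted p = 0.0214, higher in 5 of 6 clutches). Of 23 endoderm genes 2 rose. Of 25 organizer genes 2 rose, lhx1.L and fst.L, which encodes follistatin, a binder of activin and BMP (0.50 ± 0.09, adjusted p = 0.00805). The S copy, fst.S, was at -0.05 (adjusted p = 0.993). No gene was called among 19 neural plate, 34 neural crest and placode, 25 epidermal and 25 presomitic and somitic genes.

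The signalling lists held 0 to 3 called genes each, or 0% to 12% of a list, beside the same 0.969% of all genes tested. Of 25 FGF pathway genes 3 rose: the MAP kinase phosphatases dusp6.L (0.50 ± 0.10, adjusted p = 0.0172) and dusp5.L (0.36 ± 0.08, adjusted p = 0.0265), and the ETS factor etv1.S (0.21 ± 0.05, adjusted p = 0.0465). dusp6.L ran from 28.2 to 54.9 CPM with RA (median 37.1), against 25.5 to 31.4 CPM with DEAB (median 27.1), with clutch B slightly lower with RA. Of 48 Wnt pathway genes 2 rose, kremen2.S, a receptor for the Wnt antagonist Dickkopf (0.82 ± 0.17, adjusted p = 0.0200), and the Wnt receptor fzd6.L (0.49 ± 0.11, adjusted p = 0.0314). Of 30 Eph, ephrin, semaphorin and netrin genes 2 rose, sema3f.L (1.03 ± 0.24, adjusted p = 0.0394) and sema6a.L (0.44 ± 0.07, adjusted p = 0.00221), both semaphorins that guide axons and cells. The S copy, sema6a.S, was at 0.02 (adjusted p = 0.993). None of 36 BMP, nodal and TGF-beta genes passed. Of 10 polyamine genes azin2.S, which encodes an antizyme inhibitor, was called (0.66 ± 0.15, adjusted p = 0.0366), although clutch A went the other way, at 164 CPM with RA against 207 CPM with DEAB. None of 60 cell cycle and DNA replication genes and none of 16 widely used reference genes was called, and the reference genes lay between -0.05 and 0.16. In all, 36 of the 188 called genes belonged to one of the 23 lists examined.

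Several of the largest rises lay outside these lists. LOC100489456.L, a gene known only by number, had the largest log2 fold change among genes changed alike in all clutches, 2.91 ± 0.45 (adjusted p = 0.00154), at low level: it ran from 0.852 to 12.96 CPM with RA (median 3.38), against 0 to 2.11 CPM with DEAB (median 0.326), and the DEAB library of clutch F held no read of it. mxra5.S, a matrix-remodelling associated gene, ran from 1.74 to 10.4 CPM with RA (median 2.93), against 0 to 2.78 CPM with DEAB (median 0.686) (2.22 ± 0.45, adjusted p = 0.0166). Here clutch A barely differed (3.24 CPM with RA and 2.78 CPM with DEAB), whereas clutch D had 5.23 CPM with RA and no read with DEAB. LOC108703560 ran from 5.96 to 35.8 CPM with RA (median 15.6), against 2.82 to 6.30 CPM with DEAB (median 4.08) (2.03 ± 0.27, adjusted p = 0.000520). cmtm5.L, a membrane protein of the MARVEL family, ran from 3.23 to 6.49 CPM with RA (median 4.78), against 0.445 to 2.93 CPM with DEAB (median 1.60) and did not overlap (1.51 ± 0.22, adjusted p = 0.00112). LOC108701808 and LOC108718689 had log2 fold changes of 1.50 and 1.45, and 2 of the 15 largest rises were genes without a symbol. Of all 172 higher genes 14 had no symbol and 37 only a locus number.

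The 16 genes that fell with RA changed little and shared no list among those examined beyond rdh10.S. LOC108709468 had the most negative log2 fold change, -0.82 ± 0.19 (adjusted p = 0.0352), running from 0.852 to 3.21 CPM with RA (median 1.38), against 0.889 to 5.56 CPM with DEAB (median 2.17). In the fit of all times its log2 fold change was 0.31 at 0 h and 0.45 at 1.5 h. It was -0.81 at 3 h and -0.28 at 4.5 h, and no change between 3 h and another time was called. Both copies of rnf144b, which encodes a ubiquitin ligase, fell: rnf144b.L ran from 3.12 to 6.53 CPM with RA (median 4.83), against 5.07 to 11.4 CPM with DEAB (median 7.81) (-0.77 ± 0.16, adjusted p = 0.0227), and rnf144b.S from 8.72 to 46.2 CPM with RA (median 18.8), against 14.8 to 59.3 CPM with DEAB (median 31.2) (-0.49 ± 0.10, adjusted p = 0.0199). kcnk5.S, a potassium leak channel, was the 1 lower gene called without any one clutch, from 41.1 to 81.0 CPM with RA (median 45.4), against 55.2 to 94.2 CPM with DEAB (median 61.8) (-0.41 ± 0.07, adjusted p = 0.00282). LOC108719498 (-0.70), creb3l4.S (-0.43), LOC108713024 (-0.37), the phosphate transporter gene slc34a2.L (-0.34) and slc16a12.S of the monocarboxylate transporter family (-0.32) followed, with adjusted p between 0.0203 and 0.0471, and 1 further gene had no symbol. All the named lower genes overlapped between the groups and differed within clutches.

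The control embryos lay between the treated ones for most of these genes: of the 172, RA was above control for 170 and DEAB below control for 164. The genes were chosen by RA minus DEAB in this same fit. That choice favours a control between the treatments, so this order and the medians over the chosen genes are a description. Set against control in the same fit, RA changed 31 genes (0.16% of those tested, 30 higher and 1 lower) and DEAB 7 (0.0361%, 3 higher and 4 lower), and at an unadjusted p under 0.05 the counts were 1322 and 1915, against 1415 for RA and DEAB. Both comparisons share the control libraries. Over the 172 higher genes the median log2 difference was 0.40 for RA minus control and -0.23 for DEAB minus control, and over the 16 lower genes -0.21 and 0.19. Of the 172, 29 were themselves called for RA against control and 1 for DEAB against control. For cyp26a1.S the log2 differences from control were 1.102 with RA (adjusted p = 0.0722) and -0.51 with DEAB (adjusted p = 0.493), neither called, whereas the difference between the treatments was. For a few genes the difference from control was called with RA: mxra5.S was 2.51 from control with RA (adjusted p = 0.0279) and 0.30 with DEAB, arid1b.S 1.05 (adjusted p = 0.0188) and -0.05, and jag1.L 0.40 (adjusted p = 0.0215) and 0.05. fzd6.L showed the opposite order of sizes without a call, at 0.07 from control with RA and -0.41 with DEAB (adjusted p = 0.263).

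Within clutches the difference was divided unequally between the sides. Each clutch had 1 library per group here, and both differences from control used the same control library. A deviation of that library cannot be told apart from a trait of the clutch. As a description of genes chosen in these libraries, the median over the 172 higher genes of RA minus DEAB was 0.38 in clutch A, 0.25 in B, 0.76 in C, 0.73 in D, 0.96 in E and 0.74 in F. In clutch C the DEAB library stood at control level (0.01) and RA far above it (0.78), whereas in clutch A RA was closer to control (0.10) than DEAB (-0.22), and in clutch B the treatments lay about equally far from it (0.12 with RA and -0.12 with DEAB). In cyp26a1.S, clutch C had 1186 CPM with RA, 185 with DEAB and 195 in control, while clutch A had 214 CPM with RA, 143 with DEAB and 216 in control. The counts against control followed the clutches kept in the fit: RA against control gave 57 genes without A, 59 without B, 4 without E and 0 without C, D or F, and DEAB against control gave 63 without C, 15 without A, 1 without B or E and 0 without D or F. The 4 clutches labelled stage 12 alone gave 205 called genes for RA against DEAB.

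**Figure D3:**
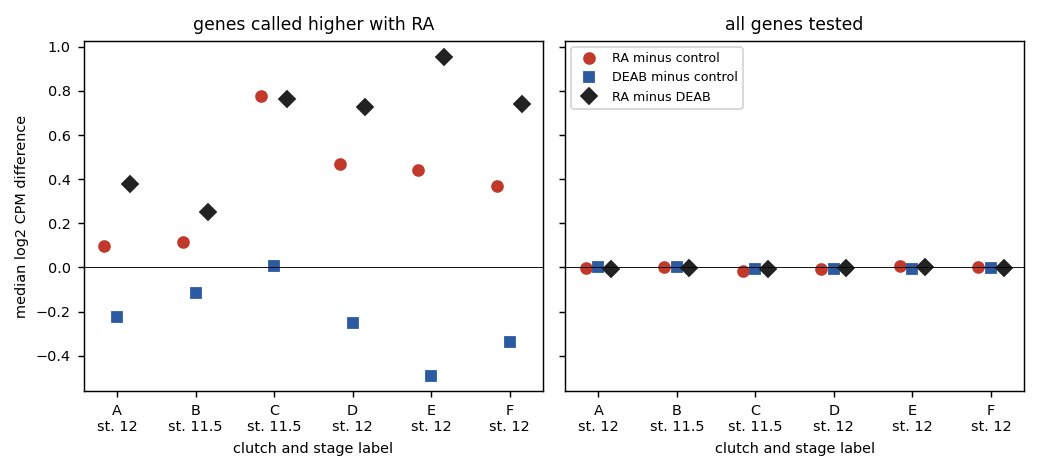
Median log2 CPM difference per clutch over the 172 genes called higher with RA (left) and over all 19400 genes tested (right), for RA minus control, DEAB minus control and RA minus DEAB. In clutch C DEAB lies at control, in clutch A RA lies closer to control than DEAB, and in clutch B both lie about equally far from it, while the medians of all genes stay close to 0.

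In control embryos 85.5% of the 172 higher genes had a higher mean at 4.5 h than at 1.5 h after washing (median log2 change 1.1, 53.5% by at least 2-fold), against 48.6% of all genes tested (median -0.03, 15.3%). Each library was therefore placed on an axis drawn through the controls, on which 0 is the clutch's own control at 1.5 h and 1 the average control at 4.5 h, using 6655 genes that changed at least 2-fold between those times. The mean position was 0.476 ± 0.041 with RA, 0.442 ± 0.099 with DEAB and 0.505 ± 0.054 in control (SD, n = 6 each). RA minus DEAB was 0.034 ± 0.111 (SD) and did not pass the exact 2-sided sign-flip test over 6 clutches (p = 0.4375, where the smallest p that 6 clutches allow is 0.03125). Clutches A, E and F had RA ahead of DEAB by 0.087, 0.159 and 0.111, B and D differed by -0.001 and 0.003, and clutch C by -0.153. The part of developmental position in the calls was not tested.

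Most of the genes called higher at 3 h already lay above 0 when the agents were washed out (93.6% of 172, against 50.4% of all genes). In a fit of the 72 RA, DEAB and control libraries of all times, the median log2 fold change (RA minus DEAB) of the 172 genes was 0.37 at 0 h and 0.60 at 1.5 h. It was 0.65 at 3 h and 0.41 at 4.5 h, while that of all 22092 genes tested stayed within 0.01 of 0. The genes were chosen by their values at 3 h, so this order of times is a description. The change in the RA minus DEAB difference between times was tested gene by gene. Against 0 h, 6 genes (0.0272%) had a smaller difference at 3 h and none a larger one. Against 1.5 h, 1 gene (0.00453%) changed, and against 4.5 h edgeR called 0 (0%). At an unadjusted p under 0.05 the counts were 803, 749 and 882. Among the 6 were both copies of hoxd1, cyp26a1.S, dhrs3.L and LOC108697667. hoxd1.S had log2 fold changes of 2.36 at 0 h and 0.69 at 3 h, a change from 0 to 3 h of -1.67 ± 0.27 (SE, adjusted p = 0.000913). cyp26a1.S had 3.39 at 0 h and 1.61 at 3 h, and dhrs3.L 3.06 and 1.45, with a change from 0 to 3 h of -1.77 ± 0.34 (adjusted p = 0.0263) and -1.61 ± 0.32 (adjusted p = 0.0374). The mean log2 CPM of hoxd1.S in control embryos was 2.87 at 0 h and 6.55 at 3 h. Between these times dhrs3.L went from 6.55 to 7.48 with RA and from 3.52 to 6.09 with DEAB. The smaller difference of dhrs3.L thus came with more RNA on both sides. cyp26a1.S went from 9.05 to 8.77 with RA and from 5.65 to 7.25 with DEAB.

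Other genes had their largest estimate later. cyp26c1.L had 1.43 ± 0.62, 2.60 ± 0.36, 1.99 ± 0.25 and 1.87 ± 0.23 (SE) at the successive times, and rdh10.S 0.03, -0.17, -0.28 and -0.25. The test of 3 h against 0 h did not pass for either. LOC100489456.L had 1.84 ± 1.64, 3.99 ± 1.07, 2.91 ± 0.44 and 1.72 ± 0.26 (SE), so its early values are loose. prph.L had 1.12, 1.49, 1.67 and 1.48 and nr6a1.S 0.37, 1.09, 0.92 and 0.64, and all of these were also without passing. These calls rest on few clutches: the count against 0 h was 13 without clutch C, 3 without A or E, 2 without B and 1 without D or F.

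**Figure D4:**
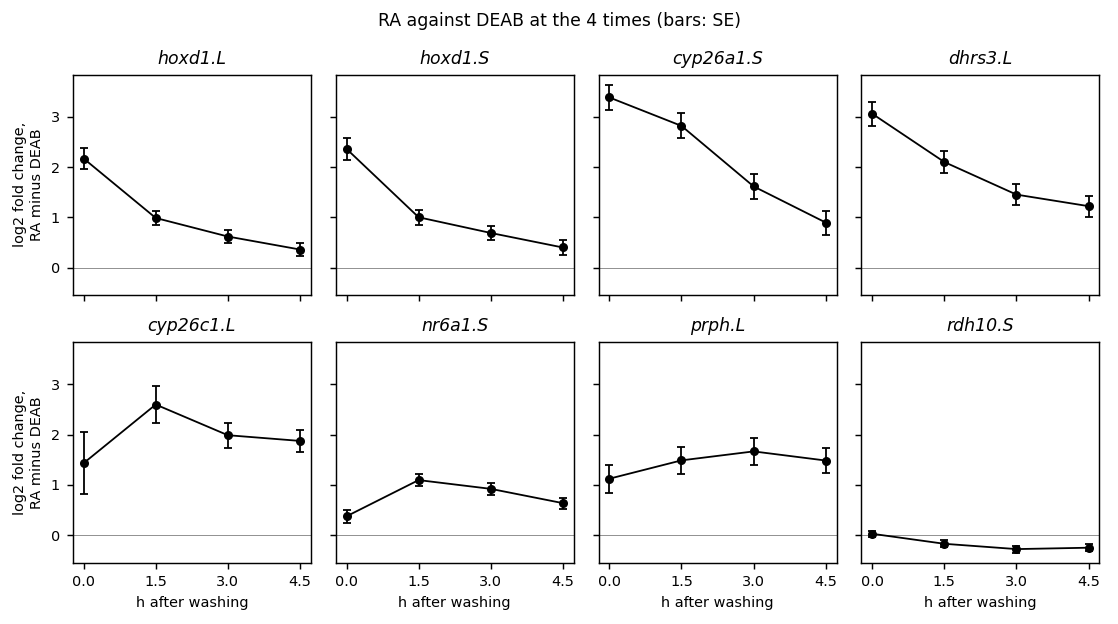
Log2 fold change (RA minus DEAB, with SE) of 8 genes at 0, 1.5, 3 and 4.5 h after washing, from the fit of 72 libraries. Both copies of hoxd1, cyp26a1.S and dhrs3.L start above 2 and decline, cyp26c1.L and nr6a1.S are highest at 1.5 h, prph.L is highest at 3 h, and rdh10.S is slightly below 0 from 1.5 h on.

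Of 2659 pairs with both copies tested, 62 had a called copy: 14 with both called, 28 with L only and 20 with S only. A test of the difference itself (limma on the log2 ratio of L to S, clutch as a block) found 34 pairs (1.28%), of which 23 had the larger value in L and 11 in S. Of the 48 pairs with a single called copy, 18 passed this test, so that for the other 30 a difference between the copies was not shown. arid1b, a subunit of the BAF chromatin remodelling complex, moved in S alone: arid1b.S averaged 16.98 ± 4.28 CPM with RA and 7.95 ± 3.08 CPM with DEAB and arid1b.L 31.3 ± 3.87 CPM with RA and 31.8 ± 3.47 CPM with DEAB (SD, n = 6 each), an L minus S difference of -1.16 ± 0.15 (adjusted p = 0.000562). msi1, an RNA-binding protein of neural precursors, also moved in S (0.66 against -0.13 in L, difference -0.81 ± 0.11, adjusted p = 0.000660). ccdc68 and the small GTPase gene rhebl1 moved in L, with differences of 1.11 ± 0.15 (adjusted p = 0.000660) and 0.53 ± 0.08 (adjusted p = 0.000817). rhebl1.L, from 149 to 243 CPM with RA (median 176), against 98.7 to 155 CPM with DEAB (median 128), had the smallest p of all genes in the main comparison (log2 fold change 0.55 ± 0.05, adjusted p = 3.5e-05) at a modest size. For akap12, a scaffold of protein kinase A, neither copy was called (-0.10 in L and 0.35 in S) but the difference between them passed (-0.44 ± 0.06, adjusted p = 0.000679). cyp26c1 did not pass this test (-0.05 ± 0.09), while the difference was larger in L for meis3 (0.58 ± 0.10, adjusted p = 0.00334) and larger in S for cyp26a1 (-0.25 ± 0.06, adjusted p = 0.0269).

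**Figure D5:**
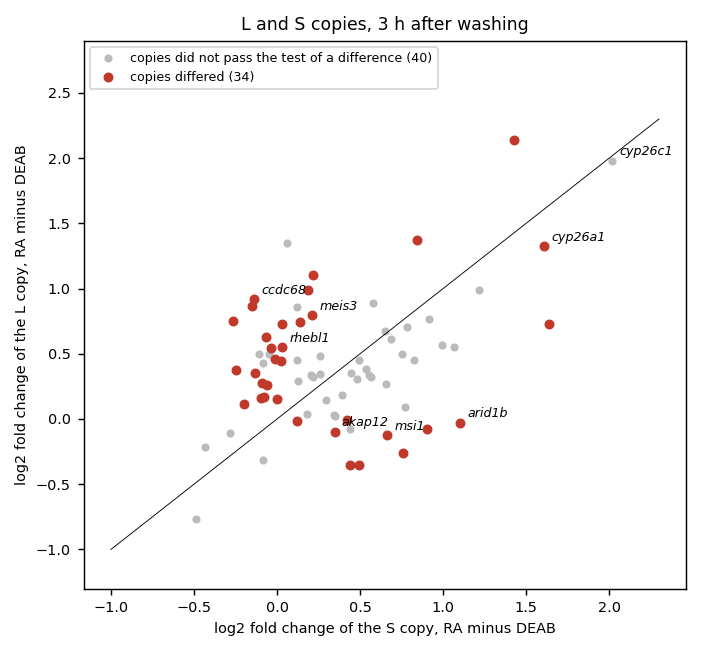
Log2 fold change (RA minus DEAB) of the L copy against the S copy for the 74 pairs with a called copy or a called difference, with the line of equal change. The 34 pairs whose copies differed lie off the line, 23 above it and 11 below.

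Some called genes sat side by side. By symbol, 11997 tested genes could be placed in the RefSeq gene order of assembly Xenopus_laevis_v10.1. Of 144 called genes among them, 14 (9.72%) had a called gene beside them on either side, against 2.28% of the genes not called. The shares were not compared by a test. The 7 pairs included, listed after their values were seen, cyp26a1 and cyp26c1 on both chromosomes 7L and 7S, hoxb1.S and LOC108702517, gbx2.1.L and gbx2.2.L, efs.L and cmtm5.L, and znf516.L and tshz1.L. In each pair both genes were higher with RA. Some pairs are genes of the same family, such as cyp26a1 with cyp26c1 and gbx2.1.L with gbx2.2.L, so they are not separate cases. The authors' assembly was version 9.1, so the order is that of another build and no coordinates are given.

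Of the 56 called genes chosen for description, 31 were called in each of the 6 fits that left out a clutch, and the calls of 23, 20 and 24 of them were lost without clutches D, E and F. cdx4.S and jag1.L were called in 4 of the 6 fits, and tbx3.S, kremen2.S, both copies of rnf144b and LOC108719498 in 3. mxra5.S, LOC108718689, LOC108713024, lhx1.L, fzd6.L, azin2.S, dusp5.L and dusp6.L were called in 2 of the 6, and rdh10.S, sema3f.L, etv1.S, LOC108709468, creb3l4.S, slc34a2.L and slc16a12.S in 1.

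The threshold fell in a continuous range. The last genes inside it were tmem138.L (0.35, adjusted p = 0.0479) and LOC108709893 (0.70, adjusted p = 0.0488), and the first outside were meis3.S (0.21, adjusted p = 0.0539) and a gene without a symbol (1.56, adjusted p = 0.0550).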

How the data were processed

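The study sequenced whole-embryo RNA by Illumina, and the authors aligned reads to X. laevis assembly 9.1 with STAR and counted them per gene with verse. The deposited count table holds raw read counts of 31430 genes in 96 libraries. A second deposited table holds log2 values of 16322 genes in 72 libraries, which the authors made with DESeq2's regularised log, ComBat batch correction, a filter on low expression and quantile normalisation. Such values have batch differences removed, so they served only as an alternative and as the source of gene symbols, and 1503 of their rows have no symbol.

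Counts at 3 h were fitted with edgeR 4.0.16 in R 4.3.3 (TMM scaling, filterByExpr, quasi-likelihood test) over the 18 RA, DEAB and control libraries, with the clutch as a block, since the labels give the same female for a letter in every group. P-values were adjusted by Benjamini-Hochberg and called under 0.05. The SE of an edgeR log2 fold change is its size divided by the square root of the test's F statistic. It thus restates the test and is not the spread over the 6 clutches. CPM are counts scaled to library size by TMM. Log2 CPM used a prior count of 2. Differences between times came from 1 fit of 72 libraries with a block per clutch and time, and L minus S differences from limma 3.58.1. DESeq2 1.42.0 was an alternative, beside other scaling, no filter, no block, other sets of libraries and each clutch left out. The code was tested on simulated data. Replicates are clutches, and the precision is set by 6 of them, at 7422919 to 13715351 counts per library.

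The described genes were the 15 largest rises and 10 largest falls among genes called and alike in 6 clutches. To these came all called genes of the RA, receptor, hox and cofactor lists and up to 3 called genes for each other list. Each tested copy of the main RA enzymes and up to 5 of each other comparison were added. For dhrs3, aldh1a2 and aldh1a3 only the L copy was tested under its symbol. Genes without a symbol were counted and not named. The members and lists were chosen with earlier results of these data known. Listed names without a matching symbol were not analysed here. Results of some genes are not reported here.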

Additional observations from a re-analysis of the deposited data

Results flagged for a closer look

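In 2 of 65 described genes, 1 clutch lay far from the other 5, where chance gives about 1 in 20. For aldh1a2.L, the log2 difference (RA minus DEAB) of clutch C was -0.57, against -0.20 to -0.03 in the others. For LOC108719498 that of clutch C was -1.11, against -0.70 to -0.56.

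For 6 genes, 5 of which are given here, the difference between RA and DEAB at 3 h differed from that at 0 h in the test of the change itself (edgeR). The changes were -1.67 for hoxd1.S and -1.55 for hoxd1.L (adjusted p = 0.000913 for each), -1.77 for cyp26a1.S (adjusted p = 0.0263), -1.61 for dhrs3.L (adjusted p = 0.0374), and -1.25 for LOC108697667 (adjusted p = 0.0482). Against 1.5 h, Xelaev18046754m, a gene without a symbol, changed by 6.55 (adjusted p = 0.0042). Its log2 CPM was above 1.5 only in clutch B. There it was 3.43 with RA and -1.90 with DEAB at 3 h, and -1.55 with RA and 2.63 with DEAB at 1.5 h, so that the value rests on 1 clutch, without which 0 genes were called. The other 10 RA, DEAB and control libraries of clutch B held the gene, at a log2 CPM of 1.52 or more. Whether these 2 libraries carry the right treatment label was not tested.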

How the results depend on the processing

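For RA against DEAB, 3 h, 188 genes were called. The count was 326 with no filter on low counts, 72 with limma on the deposited log2 values, 232 with DESeq2, 137 with the 12 treated libraries alone and 250 with all times in 1 fit. Leaving out a clutch gave 84 to 204. RA against control had 31 calls, 164 with no filter, 78 with DESeq2 and 0 to 59 with a clutch left out. DEAB against control had 7, then 137, 45 and 0 to 63. The change from 0 h had 6 calls, 12 with no filter and 1 to 13 with a clutch left out. The change from 1.5 h had 1 (0 to 2), and that from 4.5 h had 0 (0 to 1). Copies differed in 34 pairs (21 to 47, with 22 without clutch E and 21 without F). The position difference was 0.034 (0.009 to 0.071 with a clutch left out). The cause of these changes was not tested.

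Without the clutch block, the pairing of libraries was lost and the counts were 2 for RA against DEAB, and 0 for RA against control, DEAB against control, the change from 0 h, from 1.5 h and from 4.5 h, and the copies.

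Of 56 described called genes, none reversed under any alternative. They were called in these same libraries, which the alternatives largely reuse, so this is a description and no further support for the calls. Calls lost were 55 without the block, 28 of 55 with limma on the deposited log2 values, 16 each with the 12 treated libraries alone and with the 4 stage 12 clutches, 7 with ethanol included, 5 with all times in 1 fit, 2 with DESeq2, 1 with its size factors and 0 with no filter. Without clutches A, B, C, D, E and F the calls of 7, 9, 15, 23, 20 and 24 of them were lost. The uncalled gene in RA against DEAB, 3 h, rhebl1.S, changed sign without clutch A (-0.00103) and without F (-0.000815), with a range up to 0.0984 without D.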
